A study of Homo sapiens with 46 samples.

Results

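Interferon-stimulated genes are the genes that cells switch on after exposure to interferon. A list of 40 of them was followed through RNA-seq counts of 46 libraries of DLD-1, an established human colorectal adenocarcinoma line, out of 62756 genes in the table. The members were taken by name: each symbol was matched to 1 gene of the table. The cells were either the untagged parental line or 1 of 3 lines in which an endogenous lamin carries an auxin-inducible degron at its N-terminus: Lamin A/C (labelled LA/C-AID, here LAC), Lamin B1 (LB1-AID, here LB1) or Lamin B2 (LB2-AID, here LB2). Lamins are the filament proteins under the inner nuclear membrane, and a degron marks the protein that carries it for destruction once the plant hormone auxin is given. Auxin was given at 1 mM, and cells of each line were taken at 0, 16 and 96 h. Of the 12 resulting groups, LB1 at 0 h and LB2 at 96 h have 3 libraries and the others 4. Parental cells went through the same course so that responses to auxin itself could be listed. A replicate was 1 culture well, so the p-values measure the spread between wells of 1 line. The labels do not say whether a line is 1 clone, which lines carry the plant receptor that auxin acts through, or whether cells at 0 h received the DMSO in which auxin was dissolved.

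Type I and type III interferons bind receptors at the cell surface, and the receptor-bound kinases JAK1 and TYK2 phosphorylate STAT proteins, STAT2 among them. STAT2 joins IRF9 in a complex that enters the nucleus and binds the interferon-stimulated response element in the promoters of its target genes. The targets encode proteins that bind or cut viral RNA, block membrane fusion, attach the ubiquitin-like protein ISG15 to other proteins, and supply peptides to MHC class I. Many are also transcribed at a low level in cells that have met no interferon, epithelial cells included.

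The core of that response element, searched as GAAA-NN-GAAA (an unbroken run in which N is any base) on both strands, was present in the promoter window (250 bases before to 50 after the start, RefSeq, GRCh38.p14) of 21 of the 34 members with an entry (61.8%), against 3.65% of all 27305 windows. The core of the gamma-activated site, an element of interferon gamma targets, searched as TTCNNNGAA on both strands, was present in 9 of 34 (26.5%), against 7.88% of all windows. Each gene was taken at its first listed start. With any listed start the cores were present in 24 and 12 members, against 4.38% and 9.38% of all genes. The stretches printed here come from upstream of the RefSeq start and are written 5′ to 3′ on the gene's strand, with the GAAA-NN-GAAA core or its reverse complement in capitals. The first pair are the members of the 10 described in most detail that hold the core wholly upstream. The other three were chosen after their values were seen: ISG15 and SAMD9 for their differences between groups, and BST2 because it was nearly silent.
DDX60, chr4:168318781-168318855, minus strand: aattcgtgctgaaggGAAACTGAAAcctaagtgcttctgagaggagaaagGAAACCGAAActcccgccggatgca
HERC5, chr4:88456979-88457069, plus strand: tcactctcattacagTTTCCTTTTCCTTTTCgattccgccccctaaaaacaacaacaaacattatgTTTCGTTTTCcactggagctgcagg
ISG15, chr1:1013369-1013414, plus strand: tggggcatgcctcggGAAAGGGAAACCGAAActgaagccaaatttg
SAMD9, chr7:93118091-93118130, minus strand: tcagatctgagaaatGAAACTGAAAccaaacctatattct
BST2, chr19:17405730-17405775, minus strand: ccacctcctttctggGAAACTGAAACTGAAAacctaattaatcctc
Distances are from the RefSeq start of the window, which need not be the outermost start of the gene in the count table: the DDX60 and ISG15 stretches lie inside the span that the table gives for these genes. In DDX60 the cores start 88 and 53 bases before the RefSeq start. HERC5 holds 3, at 125, 119 and 74 bases before it, of which the first pair overlap. ISG15 holds an overlapping pair at 113 and 107 bases, SAMD9 a single core at 136, and BST2 an overlapping pair at 130 and 124. A match describes these letters and is not a site shown to be bound.

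Library totals ran from 479446 to 37309421 counts with a median of 11533218, a 77.8-fold range, and 6 libraries had under 5000000. Levels are CPM, a count relative to the library total after TMM scaling, given in replicate order and as mean ± SD over replicates. A test is edgeR's quasi-likelihood test over 21484 genes in 1 fit of all libraries, and a gene is called, or said to rise or fall, at a Benjamini-Hochberg adjusted p under 0.05. Changes are log2 fold changes ± the standard error of the fit. The first replicates of LAC and LB2 at 0 h and the third of LB2 at 16 h stood apart from their groups, with median absolute deviations of 0.55, 0.53 and 0.51 on the log2 scale. Deviations followed GC content across genes in many libraries, with a Spearman rho of 0.67, 0.70 and 0.27 in these and of -0.78 to 0.71 over all 46. The third of LB2 at 16 h is the least deep of all, where 1 count is 2.18 CPM. The LAC changes as a whole also followed GC content, with a rho of -0.71 at 16 h and -0.65 at 96 h over 8657 genes, and -0.68 and -0.50 over the members. Its part in the results was tested only by removing GC and length trends, which kept 47 of the 49 calls of members. Markers of colorectal epithelium summed to 5770 to 13075 CPM, 11 of 12 passing the filter. Leukocyte markers summed to at most 5.78 CPM, fibroblast markers to at most 6.47, with COL1A2 and DCN at 0, and endothelial markers to at most 17.5. The transcripts of the 3 tagged lamins were measured in every group (269.9 to 855 CPM for LMNA, 86.5 to 227 for LMNB1, 143 to 498 for LMNB2) and do not check depletion, since the degron acts on the protein. At 0 h each tagged line was below the parental line in its own lamin transcript, by 0.77 for LMNA in LAC, 0.64 for LMNB1 in LB1 and 1.02 for LMNB2 in LB2.

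Transcripts of the interferon genes were sparse. IFNB1, the type I interferon made by most cell types, had 5 counts or fewer in each of the 12 groups, and IFNL1, a type III interferon of epithelia, had 1 count in all 46 libraries. Summed over the 10 ligand genes, libraries held 0 to 3.93 CPM, with a median of 1.57 and the highest in LAC replicate 3 at 96 h. Of the 10, 2 passed the filter and none was called in any comparison. At 96 h those 2 changed by 0.72 and 1.07 in LAC and by -1.12 and -1.22 in the parental line. The LAC changes minus the parental ones were 1.84 and 2.29, at levels near the floor. The receptor chains and the factor IRF1 were present throughout: IFNAR1 at 79.2 to 118 CPM by group, IFNAR2 at 3.77 to 5.84 and IRF1, a transcription factor that interferon induces, at 16.3 to 24.2. These 3 genes were not called in any of the 20 comparisons, with the lowest edgeR adjusted p-values at 0.0881, 0.274 and 0.309 in that order.

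The members ranged from abundant to silent, as the plot of levels per kb shows. Of the 40, 35 passed the filter on low counts. IFI44 had 0 counts in all 46 libraries, which allows up to 0.0387 to 0.0999 CPM in a group (3 counts over the group, counting error only). IFI44L had 5 counts in all, XAF1 4, BST2 21 and SAMD9L 24. IFI44 and IFI44L are interferon-induced proteins of little known function, XAF1 favours cell death, BST2 tethers budding virus to the membrane, and SAMD9L restrains translation. Averaged over groups, 5 of the 35 lay above 100 CPM, 14 between 10 and 100, 12 between 1 and 10, and 4 below 1. Per kb of exon the order from the top was IFITM2 at 129, IFITM3 at 77.1, ISG15 at 75.1, IFI6 at 24.1 and DTX3L at 23.9 CPM per kb. IFITM3 and ISG15 were not separated by their group means, which overlapped, and neither were IFI6 and DTX3L. The median of the 35 was 2.42 CPM per kb, beside 2.06 over all genes tested.

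**Figure D1:**
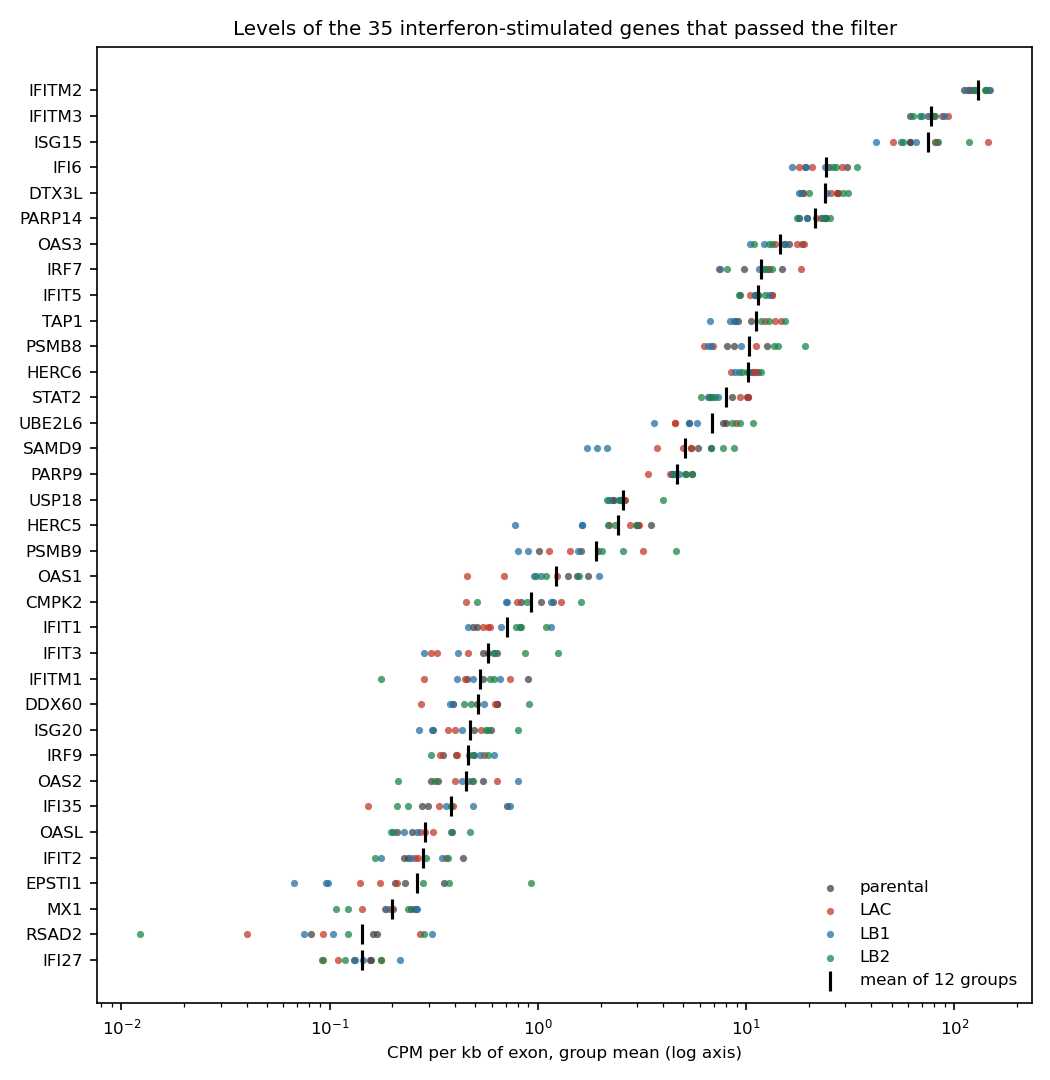
Level of each of the 35 genes that passed the filter, in CPM per kb of exon on a log axis. Each point is the mean of 1 group, coloured by line, and the black bar is the mean of the 12 groups. IFITM2, IFITM3 and ISG15 lie highest (75.1 to 129), RSAD2 and IFI27 lowest (0.14), and SAMD9 and HERC5 show LB1 points apart from the rest.

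In bulk RNA a lower share of expressing cells and less RNA in each cannot be told apart. Of the 700 tests of members, 49 were called (7%), beside 4.13% of all tests. They fell on 20 members, and the other 15 were called in none of the 20 comparisons: IFIT1, IFIT2, IFIT5, OASL, IFITM1, USP18, HERC6, IRF9, PARP9, MX1, ISG20, IFI6, IFI27, IFI35 and EPSTI1. In the parental line 3 of 35 members were called at 16 h (background 9.01% of all genes, 4.23% higher and 4.78% lower) and 4 at 96 h (7.78%), shares near the background. The split at 16 h was 2 higher and 1 lower, 2 and 3 under RLE scaling, and 1 and 3 under library size alone. LAC had 1 at 16 h (1.78%) and 11 at 96 h, 31.4% of the members beside 15.4% of all genes. Of these, 8 rose (6.74% of all genes) and 3 fell (8.64%). Under library size alone the split was 11 and 3 and under RLE scaling 9 and 4. The median over all genes shifted by 0.12 in the former. LB1 had 0 at 16 h by edgeR (1.5%) and 2 at 96 h (3.17%). At 16 h 8 members had an unadjusted edgeR p under 0.05, beside 15.3% of all genes. DESeq2 called 3 members there, beside 615 of 21484 genes, and limma voom 7, beside 1662. LB2 had 2 at 16 h (1.81%) and 5 at 96 h (3.55%), all of them higher (1.95% of all genes). When each LB2 comparison was fitted to its own groups alone, no member was called at either time, and the same held for LAC at 16 h. That fit called 4 of 16441 genes in LB2 at 16 h, 54 of 16889 at 96 h and 11 of 17182 in LAC at 16 h. For LB2 at 96 h in that fit the 5 adjusted p-values lay between 0.0563 and 0.175, with changes of 0.56 to 3.64. The median change of the 35 members was 0.24 in LAC at 96 h beside 0.03 over all genes, 0.29 beside -0.0024 in LB2, -0.02 beside 0.04 in LB1 and 0.09 beside -0.03 in the parental line. With GC and length trends removed the LAC median was 0.12. Without LAC replicate 1 at 96 h it was 0.08, beside 0.03 over all genes. Leaving out any other single library of that comparison gave 0.17 to 0.30.

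**Figure D2:**
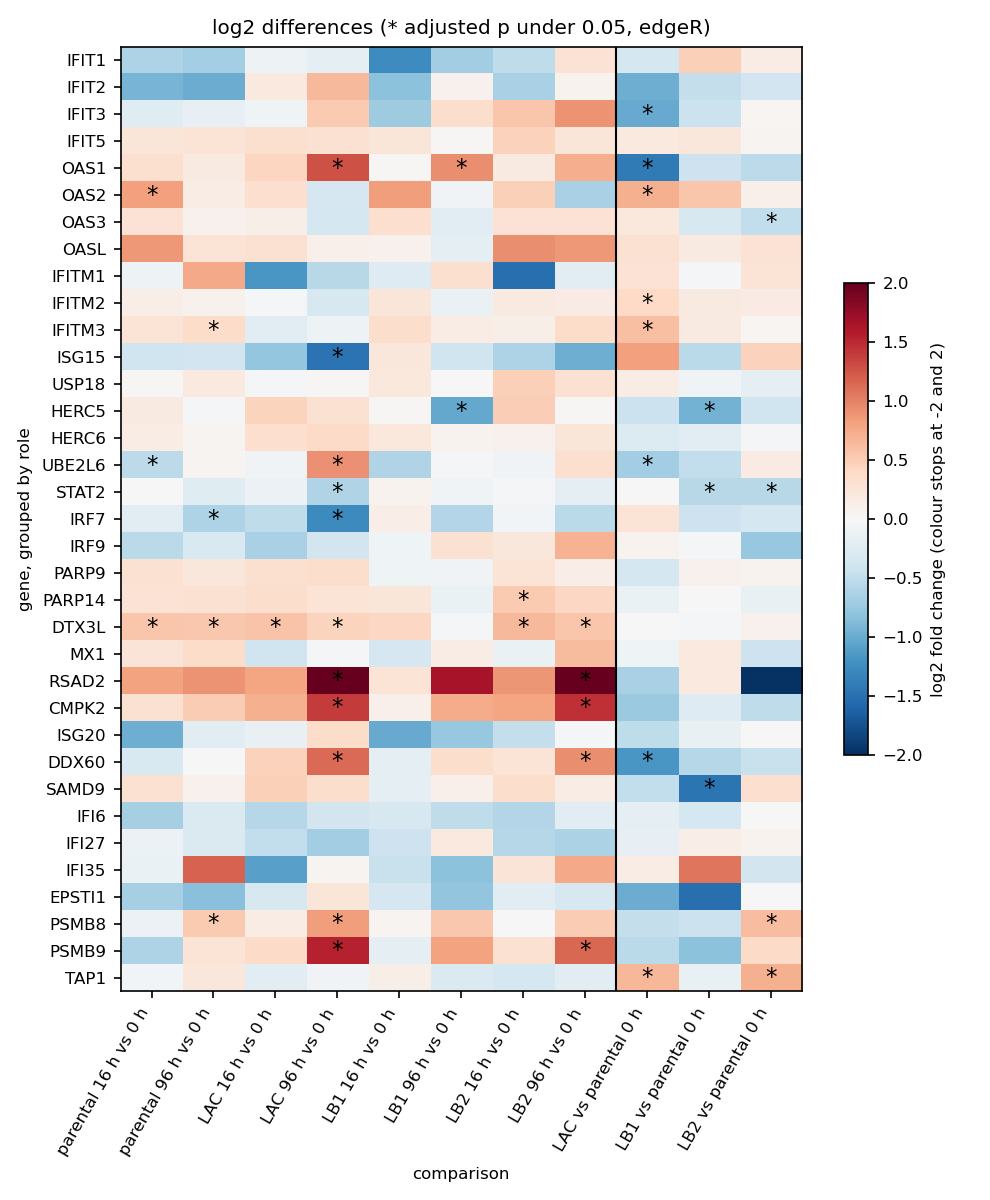
Log2 fold changes of the 35 tested genes (rows, grouped by role) in the 8 comparisons with 0 h of the same line and the 3 comparisons of tagged lines with the parental line at 0 h (columns, right of the black line). Colour runs from blue (lower) to red (higher) and stops at -2 and 2, and an asterisk marks an adjusted p under 0.05: 11 in LAC at 96 h, 5 in LB2 at 96 h, 2 in LB1 at 96 h and 4 in the parental line at 96 h.

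Among the transcription factors of the pathway, STAT2 fell in LAC by 96 h and IRF7 fell in LAC and the parental line, while IRF9 was called nowhere. STAT2 (chr12:56341597-56360203, minus strand) is a transcription factor of the answer to type I and III interferon. In the parental line it stood at 93.6, 87.5, 102 and 96.2 CPM at 0 h, 93.4, 99.4, 84.5 and 99.2 at 16 h and 86.1, 84.7, 74.2 and 73.7 at 96 h. In LAC it stood at 119, 84.7, 91.0 and 83.6, then 86.2, 84.7, 89.8 and 85.8, then 68.6, 60.6, 57.3 and 61.3. All 4 LAC libraries at 96 h lay below all those at 0 and 16 h. By 96 h STAT2 had changed by -0.60 ± 0.13 (edgeR adjusted p = 0.00078), and -0.48 without the 2 first libraries that stood apart. In the parental line each 96 h library also lay below each 0 h library, a change of -0.25 that was not called. The LAC change of STAT2 minus the parental one was -0.35 and was not called. LB1 held 74.4, 52.4 and 63.7 CPM at 0 h, 71.4, 70.5, 67.6 and 62.8 at 16 h and 54.5, 66.8, 64.4 and 59.9 at 96 h. LB2 held 89.3, 62.3, 59.98 and 52.0, then 70.6, 64.3, 58.7 and 58.7, then 67.7, 51.0 and 50.6. Before auxin both lines were already below the parental line, with differences of -0.55 ± 0.14 (edgeR adjusted p = 0.0122) in LB1 and -0.55 ± 0.13 (edgeR adjusted p = 0.00397) in LB2, and neither was called to change with auxin. At 0 h the LB1 libraries did not overlap the parental ones, whereas the first LB2 library, at 89.3 CPM, did. The LB1 difference was lost without LB1 replicate 2 or 3 at 0 h, and the LB2 difference in the fit of the compared groups alone (edgeR adjusted p = 0.118).

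IRF7, the factor that amplifies interferon production and is itself induced by interferon, was at 28.7 to 65.1 CPM in LAC at 0 h and at 18.1 to 21.8 at 96 h with no overlap, a change of -1.28 ± 0.20 (edgeR adjusted p = 8.55e-06). In the parental line it was at 31.7 to 49.3 and then 22.0 to 28.4, also without overlap, a change of -0.62 ± 0.20 (edgeR adjusted p = 0.0422). The parental call was lost in 7 of 18 alternatives, 6 of which leave out a single parental library: replicate 1 or 3 at 0 h, or any 1 at 96 h. The difference between those changes was -0.66 ± 0.28 (edgeR adjusted p = 0.13). IRF7 has the highest GC content of the members, 66.8%, and with GC and length trends removed its LAC change was -0.70 with an edgeR adjusted p = 0.0002. IRF9, the DNA-binding partner of STAT2, had group means from 1.98 to 4.00 CPM.

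The ISG15 system held calls in both directions. ISG15 is the ubiquitin-like protein itself, UBE2L6 the enzyme that conjugates it, HERC5 and HERC6 ligases of the HERC family, and USP18 the protease that removes it. UBE2L6 (chr11:57551656-57568284, minus strand) stood in LAC at 6.15, 11.2, 10.8 and 9.50 CPM at 0 h, 7.91, 10.1, 11.2 and 8.25 at 16 h and 18.8, 18.9, 18.6 and 17.4 at 96 h. The 96 h libraries lay close together and above every LAC library of the earlier times. The parental line held 13.9, 19.0, 11.7 and 19.1, then 11.0, 12.1, 9.42 and 11.5, then 19.9, 15.3, 13.9 and 16.6. LB1 held 10.2, 14.6 and 11.1, then 7.11, 8.33, 7.56 and 6.81, then 11.3, 10.6, 12.1 and 9.87. LB2 held 16.6, 20.5, 17.7 and 15.5, then 16.1, 17.4, 28.3 and 15.4, then 19.9, 24.0 and 23.1, with the high value at 16 h in the least deep library. UBE2L6 rose in LAC at 96 h by 0.91 ± 0.16 (edgeR adjusted p = 9.91e-05). Before auxin all LAC libraries lay below all parental ones, a difference of -0.70 ± 0.17 (edgeR adjusted p = 0.00285), and at 96 h they lay within the parental range. In the parental line UBE2L6 was lower at 16 h, at -0.52 ± 0.17 (edgeR adjusted p = 0.0385), with the lowest 0 h library at 11.7 CPM inside the 16 h range, and 9 of 18 alternatives lost that call.

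HERC5 (chr4:88457119-88506163, plus strand) fell in LB1. Its libraries held 7.09, 8.63 and 7.64 CPM at 0 h, 9.48, 7.36, 7.10 and 7.17 at 16 h and 3.72, 3.35, 3.52 and 4.29 at 96 h. Parental libraries held 13.4, 15.8, 14.3 and 14.3, then 12.8, 14.7, 19.8 and 19.4, then 15.8, 12.6, 13.0 and 15.5. Every LB1 library lay below every parental library, and the 4 LB1 libraries at 96 h were the lowest of all 46. The LB1 change was -1.03 ± 0.21 (edgeR adjusted p = 0.0015) at 96 h, and its difference from the parental line before auxin -0.94 ± 0.21 (edgeR adjusted p = 0.00217). The latter call was lost without LB1 replicate 1 at 0 h. LAC held 8.09, 12.2, 9.69 and 11.8, then 11.6, 12.3, 19.0 and 15.4, then 14.2, 11.5, 11.6 and 15.8. LB2 held 6.65, 13.4, 11.2 and 10.2, then 16.7, 16.4, 8.70 and 14.5, then 10.7, 12.3 and 10.6. Neither line was called at either time. HERC6, next to HERC5 on chromosome 4, had group means of 49.0 to 68.3 CPM and was not called, with a change of 0.06 ± 0.16 (edgeR adjusted p = 0.907) in LB1 at 96 h.

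ISG15 was at 73.7 to 261 CPM in LAC at 0 h and at 35.9 to 49.5 at 96 h, a change of -1.47 ± 0.33 (edgeR adjusted p = 0.00151). The highest 0 h value is the first library, which stood apart. Without it the 0 h mean was 80.1 ± 5.55 CPM (n = 3), the groups still did not overlap, and the change was -0.85 (edgeR adjusted p = 0.0508). With GC and length trends removed it was -0.83 (edgeR adjusted p = 0.00173), and ISG15 has a GC content of 63.4%. ISG15 changed by -0.39 in the parental line, -0.40 in LB1 and -0.97 in LB2, none of them called. The LAC change of ISG15 minus the parental one was -1.09 and was not called. Among LB2 libraries at 0 h the first held 222 CPM and the other three 50.3 to 71.3. USP18 had group means of 8.75 to 16.3 CPM with no call.

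**Figure D3:**
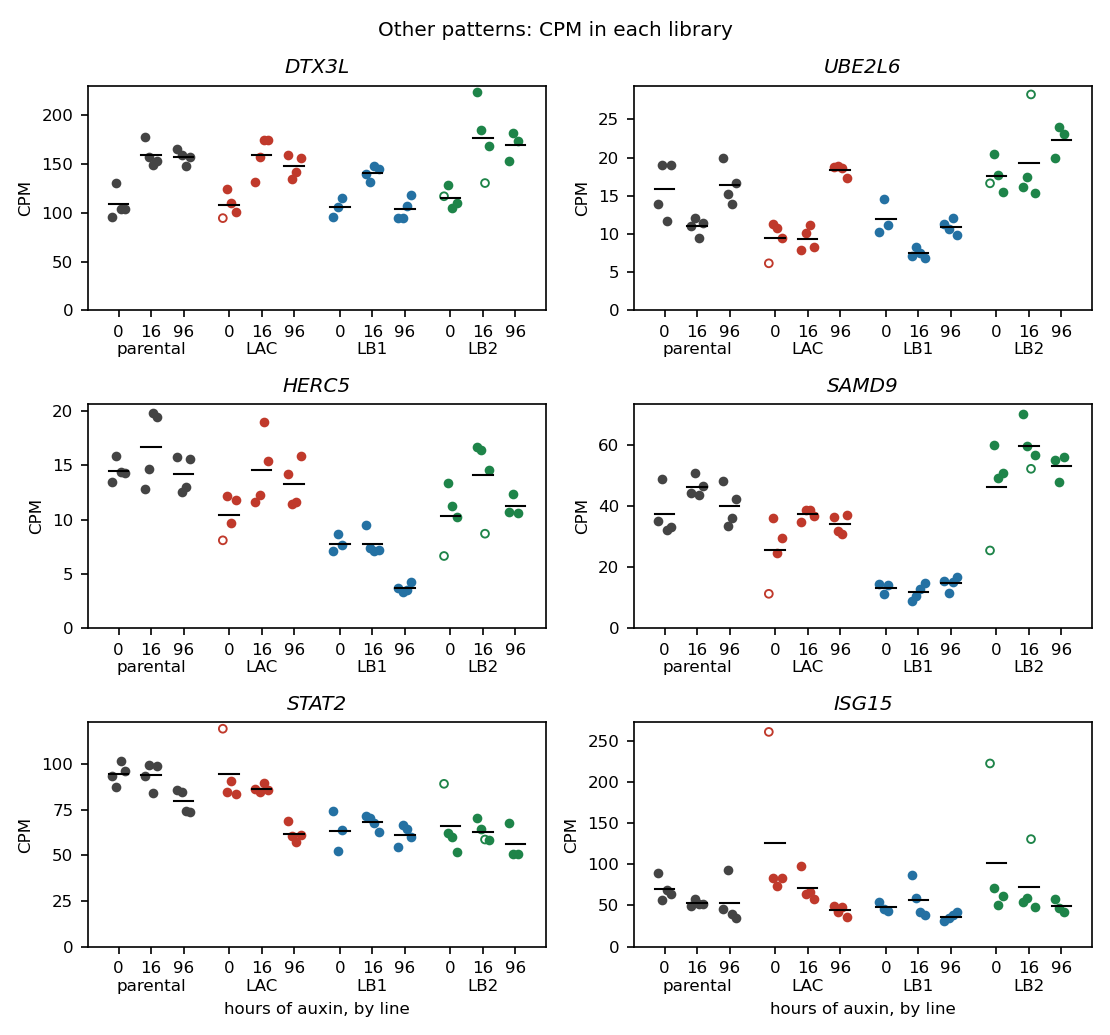
CPM (linear axis from 0) in each library for DTX3L, UBE2L6, HERC5, SAMD9, STAT2 and ISG15, by line and hours of auxin. Points are libraries, black bars group means, and open circles the first replicates of LAC and LB2 at 0 h and the third of LB2 at 16 h. HERC5 and SAMD9 are low in every LB1 library, DTX3L is higher with auxin in all lines but LB1 at 96 h, and the ISG15 mean of LAC at 0 h is set largely by the open circle at 261 CPM.

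Among the OAS family, synthases whose oligoadenylate product activates RNase L, OAS1 rose by 96 h in LAC and LB1, and no auxin response of OAS3, the largest of them, was called. OAS1 (chr12:112905856-112933219, plus strand) stood in LAC at 0.971, 8.76, 7.47 and 6.64 CPM at 0 h, 8.94, 7.74, 8.30 and 10.9 at 16 h and 15.5, 18.1, 16.7 and 14.2 at 96 h. LB1 held 13.3, 8.63 and 15.6, then 11.4, 10.2, 14.3 and 17.9, then 19.7, 23.0, 29.1 and 30.5. In both lines every 96 h library lay above every 0 h and 16 h library. The change was 1.27 ± 0.22 (edgeR adjusted p = 7.3e-05) in LAC and 0.93 ± 0.24 (edgeR adjusted p = 0.0154) in LB1. LB2 held 15.0, 13.1, 11.0 and 11.7, then 14.4, 12.7, 15.2 and 14.7, then 22.5, 18.6 and 20.6, with a change of 0.72 ± 0.23 (edgeR adjusted p = 0.0742) at 96 h and no overlap with 0 h. In parental cells it stood at 15.5, 16.5, 16.7 and 23.9, then 22.5, 17.2, 28.3 and 22.5, then 23.6, 21.2, 16.1 and 19.8, and its groups overlapped. At 0 h LAC lay below every library of the parental line and LB2, with 1 LAC library, at 8.76 CPM, inside the LB1 range, and the difference from the parental line was -1.42 ± 0.23 (edgeR adjusted p = 1.97e-05). Without the first library of LAC, at 0.97 CPM, the 0 h mean was 7.62 ± 1.07 CPM (n = 3). With the 2 apart libraries of 0 h left out, the change at 96 h was 1.06. The LB1 call was lost without LB1 replicate 1 or 2 at 0 h.

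OAS2 was higher in the parental line at 16 h (5.19 to 6.80 CPM against 3.05 to 4.13 at 0 h, no overlap), by 0.82 ± 0.23 (edgeR adjusted p = 0.0176), a call lost without parental replicate 1 at 0 h or 4 at 16 h. It was also higher in LAC than in the parental line at 0 h, by 0.70 ± 0.23 (edgeR adjusted p = 0.0282), with overlap, a call that 7 of 18 alternatives lost. OAS3, the highest of the family at 189 to 344 CPM by group, was lower in LB2 than in the parental line at 0 h, with a difference of -0.48 ± 0.13 (edgeR adjusted p = 0.0159). That difference was -0.29 with GC and length trends removed (edgeR adjusted p = 0.018) and was lost without parental replicate 2, LB2 replicate 3 or LB2 replicate 4 at 0 h. OASL, a relative without synthase activity, had group means of 1.24 to 2.98 CPM. An unnamed antisense gene overlaps OAS1, OAS2 and OAS3, and whether strand was used in counting is not given in the sources used here, so its reads cannot be told apart from theirs. The same holds for IFIT1 to IFIT3, which overlap LIPA on the other strand.

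Of the IFIT family, which binds viral RNA that lacks the host's cap marks, no member was called with auxin in any line. IFIT3 was lower in LAC than in the parental line at 0 h (1.28 to 1.94 against 2.80 to 4.37 CPM, no overlap), with a difference of -1.01 ± 0.31 (edgeR adjusted p = 0.0204), a call lost without parental replicate 2 or LAC replicate 4 at 0 h. At 96 h the changes in LAC ran from -0.19 for IFIT1 to 0.65 for IFIT2, and in LB2 from 0.07 for IFIT2 to 0.90 for IFIT3 (edgeR adjusted p = 0.077). IFIT3 in LB2 was at 1.66 to 3.83 CPM at 0 h and at 5.76 to 6.64 at 96 h without overlap. IFIT5, the most abundant of the family, had group means of 40.6 to 58.5 CPM.

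The IFITM proteins, which hinder fusion of viruses with cell membranes, include the 2 members with the highest levels per kb, IFITM2 and IFITM3, and the sparse IFITM1. IFITM2 was higher in LAC than in the parental line at 0 h by 0.40 ± 0.13 (edgeR adjusted p = 0.0302), at 235 ± 11.4 against 178 ± 20.6 CPM (n = 4 each), and 8 of 18 alternatives lost the call. IFITM3 was higher there by 0.61 ± 0.12 (edgeR adjusted p = 0.000413), at 253 to 279 against 168 to 181 CPM with no overlap. In the parental line IFITM3 rose by 0.37 ± 0.12 (edgeR adjusted p = 0.0491) at 96 h, a call that 11 of 18 alternatives lost. IFITM1 had 0.295 to 1.5 CPM by group. The 3 genes are close copies side by side on chromosome 11, and reads shared among them make their split uncertain.

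Among proteins that act on RNA or nucleotides, DDX60, RSAD2 and CMPK2 rose by 96 h in both LAC and LB2. DDX60 (chr4:168216291-168318883, minus strand), a helicase that aids RNA sensing, stood in LAC at 4.53, 5.69, 3.18 and 5.58 CPM at 0 h, 5.91, 5.99, 7.02 and 8.16 at 16 h and 9.62, 13.3, 9.67 and 10.9 at 96 h. LB2 held 3.88, 7.85, 10.4 and 8.41, then 10.4, 8.15, 2.18 and 12.3, then 16.5, 13.5 and 16.9. In both lines each 96 h library lay above each earlier one. The change was 1.13 ± 0.21 (edgeR adjusted p = 0.000195) in LAC and 0.93 ± 0.22 (edgeR adjusted p = 0.00831) in LB2, and the LB2 call was lost without replicate 3 of LB2 at 96 h. The parental line held 13.0, 11.2, 11.5 and 8.22, then 7.37, 11.7, 8.49 and 7.94, then 12.0, 10.1, 10.7 and 11.2, and LB1 7.24, 3.98 and 9.11, then 5.22, 6.97, 7.94 and 5.99, then 10.3, 9.49, 9.51 and 8.77, with no call. As with OAS1, LAC began below all parental libraries, with a difference of -1.17 ± 0.22 (edgeR adjusted p = 0.000194), and at 96 h its range overlapped theirs.

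CMPK2, a mitochondrial nucleotide kinase (chr2:6840570-6866635, minus strand), and RSAD2, the viperin gene whose product makes a chain-terminating nucleotide (chr2:6865557-6898239, plus strand), lie head to head and overlap. CMPK2 stood in LAC at 0.971, 2.44, 2.38 and 2.11 CPM at 0 h, 2.06, 3.56, 4.43 and 3.90 at 16 h and 5.05, 5.93, 5.65 and 6.09 at 96 h. LB2 held 2.22, 3.71, 2.48 and 0.510, then 4.58, 4.34, 2.18 and 4.53, then 9.42, 5.53 and 6.22. Neither line's 0 h and 96 h libraries overlapped, and CMPK2 rose by 1.4 ± 0.31 (edgeR adjusted p = 0.00123) in LAC and 1.46 ± 0.33 (edgeR adjusted p = 0.00523) in LB2. Parental libraries held 5.12, 2.64, 2.69 and 4.11, then 5.19, 3.04, 4.02 and 6.03, then 5.48, 3.69, 7.67 and 4.04. LB1 held 2.13, 3.32 and 3.96, then 1.58, 3.20, 3.55 and 4.02, then 4.71, 4.75, 4.55 and 6.28. Their changes at 96 h were 0.50 ± 0.31 (edgeR adjusted p = 0.34) and 0.74 ± 0.34 (edgeR adjusted p = 0.29). The LB2 call was lost without replicate 1 of LB2 at 96 h, at 9.42 CPM the highest library.

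RSAD2 was near the floor. In LAC it stood at 0, 0.444, 0.159 and 0.302 CPM at 0 h, 0.206, 0.568, 0.707 and 0.627 at 16 h and 1.12, 1.73, 1.53 and 1.76 at 96 h. LB2 held 0, 0.186, 0.0920 and 0, then 0.112, 0.298, 2.18 and 0.203, then 2.62, 0.992 and 1.22. Both lines were higher at 96 h than at 0 h in every library. The LAC groups held 17 counts at 0 h and 112 at 96 h, and those of LB2 4 and 62. The fitted changes were 2.29 ± 0.59 (edgeR adjusted p = 0.00579) and 3.65 ± 0.79 (edgeR adjusted p = 0.00278), values that depend on the few counts at 0 h, and DESeq2 gave no adjusted p for either. In parental cells it stood at 0.609, 0.578, 0.179 and 0.483, then 0.455, 0.657, 0.927 and 1.62, then 0.899, 0.199, 1.61 and 1.1. LB1 held 0.446, 0 and 0.828, then 0, 0.387, 0.840 and 1.11, then 1.29, 2.72, 1.81 and 1.20. LB1 was also higher at 96 h than at 0 h in every library, without a call, at 1.65 ± 0.64 (edgeR adjusted p = 0.168). The parental change of RSAD2 at 96 h was 0.90, also without a call. The LAC and LB2 changes minus the parental one were 1.39 and 2.76, and neither was called.

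SAMD9, a factor that restricts poxviruses, was lower in LB1 before any auxin. It stood at 11.3 to 14.4 CPM in LB1 at 0 h, against 32.3 to 49.0 in the parental line, a difference of -1.46 ± 0.23 (edgeR adjusted p = 1.13e-05). Across all 3 times LB1 held 9.01 to 16.8 CPM and the parental line 32.3 to 51.0, with no overlap, and no auxin response of SAMD9 was called. MX1, a GTPase that traps viral nucleocapsids, and ISG20, an RNA exonuclease, had group means of 1.92 to 4.73 and 1.93 to 5.74 CPM with no call.

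**Figure D4:**
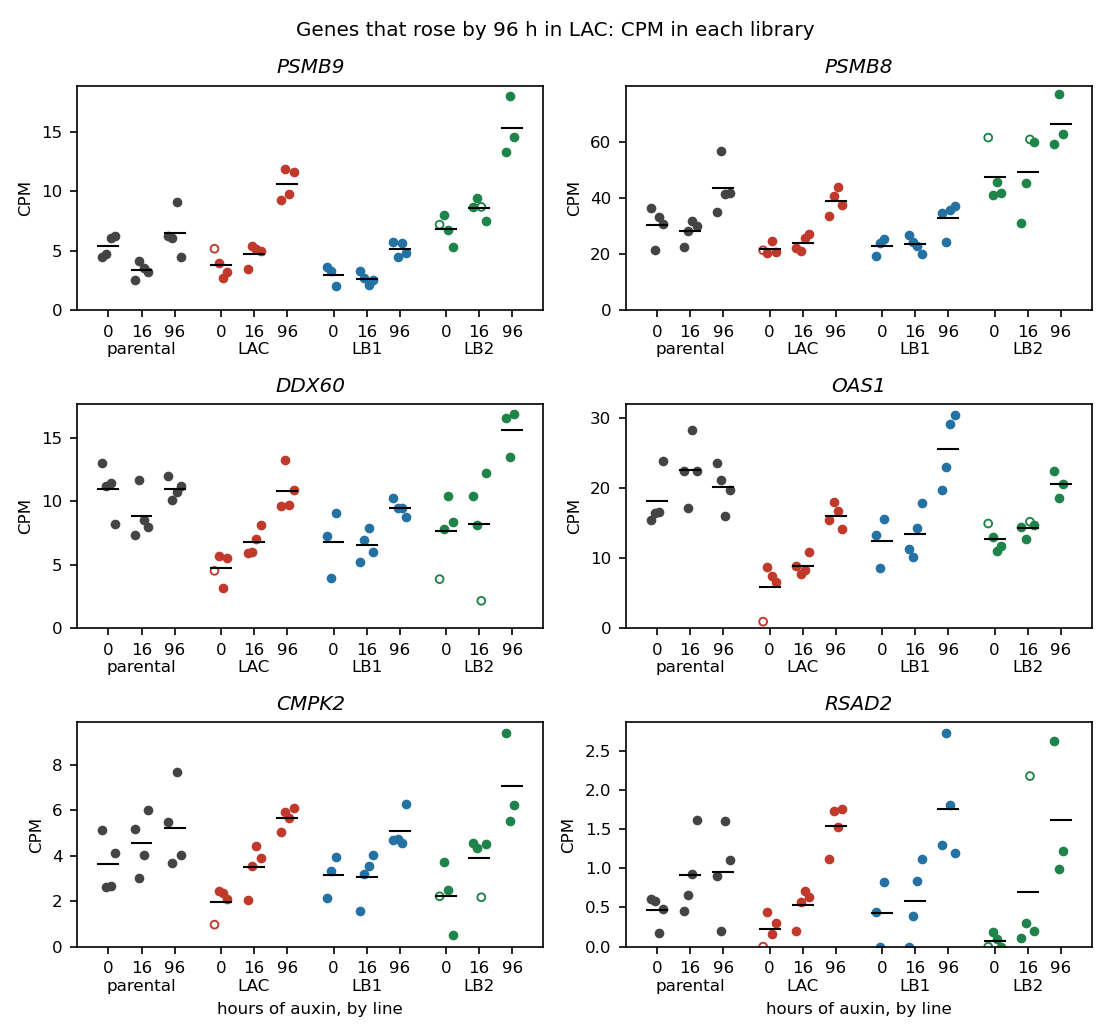
CPM (linear axis from 0) in each library for PSMB9, PSMB8, DDX60, OAS1, CMPK2 and RSAD2, by line and hours of auxin. Points are libraries, black bars group means, and open circles the first replicates of LAC and LB2 at 0 h and the third of LB2 at 16 h. In LAC the 96 h points lie above all 0 h points for all 6 genes, and for OAS1 and DDX60 they reach the range of the parental line.

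DTX3L was called in the most comparisons, 6 of 20, and the parental line was among them. It is the ubiquitin ligase that pairs with PARP9 (chr3:122564338-122575203, plus strand, overlapping PARP9 at its start). The parental line held 95.7, 131, 104 and 104 CPM at 0 h, 178, 157, 149 and 153 at 16 h and 166, 159.8, 148 and 157 at 96 h. LAC held 94.5, 125, 110.2 and 101, then 132, 157, 175 and 174, then 159.6, 134, 142 and 156. In both, each library with auxin lay above each one without. LB2 held 117, 128, 105 and 110.3, then 224, 185, 131 and 169, then 153, 181 and 173. LB1 held 95.4, 106 and 115, then 139, 132, 148 and 145, then 95.1, 94.9, 107 and 119. LB2 likewise did not overlap, while LB1 was higher at 16 h only. DTX3L rose at 16 and 96 h by 0.55 and 0.54 in the parental line, 0.56 and 0.45 in LAC, and 0.66 and 0.56 in LB2, with standard errors of 0.12 or 0.13 and edgeR adjusted p-values from 0.00169 to 0.00984. In LB1 the changes were 0.42 ± 0.13 (edgeR adjusted p = 0.0922) at 16 h and -0.02 ± 0.13 (edgeR adjusted p = 0.97) at 96 h, and the latter minus the parental change was -0.56 ± 0.18 (edgeR adjusted p = 0.109). No tagged line's DTX3L response was called different from the parental one. With GC and length trends removed the LAC changes were 0.38 and 0.28 (edgeR adjusted p = 0.038 and 0.0467). With the compared groups alone the LAC calls at both times were lost (edgeR adjusted p = 0.334 at 16 h and 0.0601 at 96 h). So were the LB2 calls at both times (edgeR adjusted p = 0.705 at 16 h and 0.154 at 96 h). The LAC call at 16 h was lost without LAC replicate 3 or 4 at 16 h, the LB2 call at 16 h without LB2 replicate 1 at that time, and the LB2 call at 96 h without LB2 replicate 3 at that time.

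PARP9, the partner of DTX3L, had group means of 30.0 to 49.3 CPM and was not called. PARP14, a mono-ADP-ribosyltransferase, rose in LB2 at 16 h by 0.52 ± 0.12 (edgeR adjusted p = 0.0139), with 147 to 202 CPM at 0 h and 232 to 286 at 16 h. Its changes at 16 h in the other lines were 0.29 in the parental line, 0.35 in LAC and 0.25 in LB1, and 8 of 18 alternatives lost the LB2 call.

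Of the members that act in antigen processing, PSMB9 rose by 96 h in LAC and LB2, PSMB8 in LAC and the parental line, and TAP1 in no line. PSMB8 and PSMB9 are the immunoproteasome subunits that cut peptides for MHC class I, and TAP1 carries those peptides into the endoplasmic reticulum. PSMB9 (chr6:32844136-32859851, plus strand) stood in LAC at 5.18, 3.96, 2.7 and 3.24 CPM at 0 h, 3.44, 5.37, 5.19 and 5.02 at 16 h and 9.25, 11.9, 9.77 and 11.7 at 96 h. LB2 held 7.21, 7.98, 6.72 and 5.35, then 8.72, 9.46, 8.70 and 7.53, then 13.3, 18.1 and 14.6. In both lines the 96 h libraries lay above all earlier ones. LB1 held 3.67, 3.32 and 2.03, then 3.32, 2.71, 2.15 and 2.51, then 5.78, 4.51, 5.64 and 4.79. Parental libraries held 4.51, 4.70, 6.10 and 6.28, then 2.55, 4.16, 3.55 and 3.24, then 6.29, 6.08, 9.10 and 4.50. LB1 also separated 96 h from 0 h, and the parental line did not. The changes at 96 h were 1.54 ± 0.21 (edgeR adjusted p = 1.09e-06) in LAC, 1.15 ± 0.22 (edgeR adjusted p = 0.000563) in LB2, 0.80 ± 0.25 (edgeR adjusted p = 0.0663) in LB1 and 0.27 ± 0.22 (edgeR adjusted p = 0.488) in the parental line.

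PSMB8 (chr6:32840717-32844679, minus strand) stood in LAC at 21.4, 20.4, 24.8 and 20.8 CPM at 0 h, 22.1, 21.2, 25.9 and 27.0 at 16 h and 33.7, 40.6, 43.8 and 37.5 at 96 h, a rise of 0.84 ± 0.18 (edgeR adjusted p = 0.000738) with no overlap. In parental cells it stood at 36.6, 21.3, 33.2 and 30.7, then 22.4, 28.2, 32.0 and 29.9, then 35.1, 56.6, 41.6 and 41.6, a rise of 0.53 ± 0.17 (edgeR adjusted p = 0.0498) with overlap that 10 of 18 alternatives lost. The LAC change of PSMB8 minus the parental one was 0.31 ± 0.25 (edgeR adjusted p = 0.478). LB1 held 19.5, 23.9 and 25.2, then 26.7, 24.3, 23.1 and 19.9, then 34.7, 24.4, 35.6 and 37.2. LB2 held 61.5, 41.2, 45.8 and 41.8, then 31.0, 45.3, 60.9 and 59.9, then 59.4, 77.1 and 62.8. LB2 was above the parental line before auxin by 0.62 ± 0.18 (edgeR adjusted p = 0.0197), with no overlap, a call lost without parental replicate 2 at 0 h. TAP1 was above it at 0 h in LAC by 0.67 ± 0.20 (edgeR adjusted p = 0.0149) and in LB2 by 0.72 ± 0.20 (edgeR adjusted p = 0.0159). Both groups hold their highest TAP1 value in the library that stood apart, 102 CPM in LAC and 109.8 in LB2. Without that library the differences were 0.47 and 0.51 (edgeR adjusted p = 0.0773 and 0.066), and both calls were also lost without parental replicate 4 at 0 h. PSMB8, PSMB9, TAP1 and the antisense gene PSMB8-AS1 overlap one another, so the split of reads between them is uncertain.

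The remaining members showed no call. IFI6, a mitochondrial and endoplasmic reticulum protein, had group means of 15.6 to 31.8 CPM, EPSTI1 0.334 to 4.55, with the highest set by 7 counts in the least deep library, IFI35 0.300 to 1.44 and IFI27 0.381 to 0.899.

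The changes at 96 h in LAC were then compared with those of the parental line, the untagged cells given auxin. Other differences between these lines, which the labels do not give, cannot be told apart from the tag. The LAC minus parental differences also followed GC content, with a rho of -0.63 over 8657 genes and -0.61 over the members. Of 35 members, 4 differed, all in the direction of a larger rise in LAC, beside 7.4% of all genes in either direction and 3.1% in this one: OAS1 by 1.09 ± 0.31 (edgeR adjusted p = 0.0238), DDX60 by 1.15 ± 0.30 (edgeR adjusted p = 0.0145), UBE2L6 by 0.86 ± 0.23 (edgeR adjusted p = 0.0179) and PSMB9 by 1.27 ± 0.30 (edgeR adjusted p = 0.00864). Over all 35 members the median of this difference was -0.03, beside 0.06 over all genes, with 17 members positive and 18 negative. DDX60 and PSMB9 passed in all 26 alternatives. OAS1 was lost in 5: the compared groups alone, the fit without libraries under 5000000 counts (0.71, edgeR adjusted p = 0.0671) and those without parental replicate 4 at 0 h, parental replicate 2 at 96 h or LAC replicate 2 at 96 h. UBE2L6 was lost in 3, 2 of which leave out parental replicate 2 at 0 h or at 96 h. OAS1, DDX60 and UBE2L6 are also 3 of the 4 members that were lower in LAC than in the parental line at 0 h, and both comparisons rest on the same LAC and parental libraries at 0 h. At 96 h the LAC ranges of these 3 overlapped the parental ones. PSMB9 was not called lower in LAC at 0 h, at -0.53 ± 0.23 (edgeR adjusted p = 0.107), and at 96 h every LAC library lay above every parental one.

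**Figure D5:**
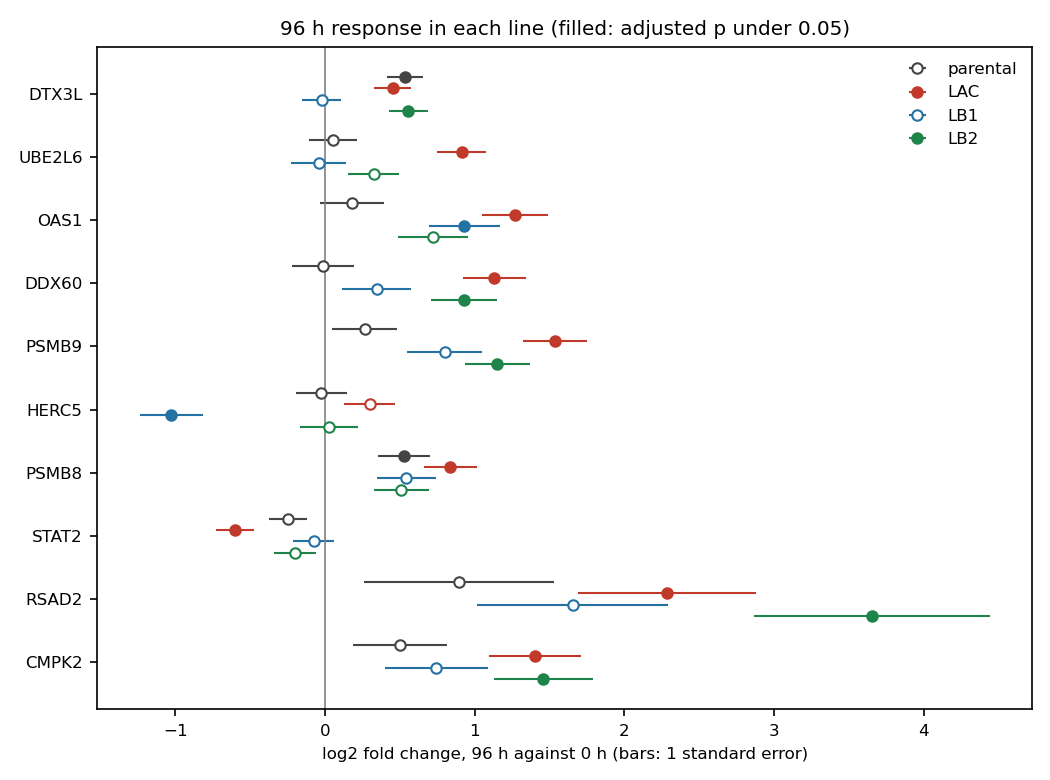
Log2 fold change at 96 h against 0 h of the same line (horizontal axis) for the 10 genes called in the most comparisons (vertical axis), with bars of 1 standard error from the fit. Colours mark the lines, and filled points have an adjusted p under 0.05. OAS1, DDX60, UBE2L6 and PSMB9 lie at 0.91 to 1.54 in LAC and at -0.01 to 0.27 in the parental line, and HERC5 lies at -1.03 in LB1.

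At 16 h no member's LAC change differed from the parental one by edgeR, beside 0.116% of all genes. At an unadjusted p under 0.05 there were 3 members, beside 12.3% of all genes. DESeq2 called 0 members and limma voom 2, beside 225 and 675 of 21484 genes. In LB1 and LB2 no member differed from the parental response at either time: the backgrounds were 0.0279% and 1.04% for LB1 and 0.00465% and 0.368% for LB2. The numbers at an unadjusted p under 0.05 were 0, 5, 1 and 7, beside 6.24%, 16.6%, 5.56% and 12.7% of all genes. DESeq2 called none in any of the 4, and limma voom called 3 in LB1 at 96 h and none in the other three. The intervals of these differences, not adjusted for the number of tests, were wide. For PSMB9 the LB2 change minus the parental one was 0.88 with a 95% interval of 0.28 to 1.49, and for DDX60 0.94, 0.35 to 1.54. Between tagged lines at 96 h, LAC and LB1 differed in 2 members (background 1.01%): HERC5 by 1.32 ± 0.27 (edgeR adjusted p = 0.00579) and UBE2L6 by 0.95 ± 0.25 (edgeR adjusted p = 0.0405). HERC5 passed in all 25 alternatives, and UBE2L6 in 9 of 25, being lost among others without the first library of LAC at 0 h. LAC and LB2 differed in 0 members by edgeR (background 0.489%), with 7 at an unadjusted p under 0.05 (12.4% of all genes). DESeq2 called 1 and limma voom 5. LB1 and LB2 differed in 0 (0.121%), with 4 at an unadjusted p under 0.05 (7.32% of all genes). For this pair DESeq2 called 0 and limma voom 3.

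Before auxin the tagged lines already differed from the parental line in several members. LAC differed in 8 of 35, 4 higher and 4 lower, beside 15.8% of all genes (8.71% higher and 7.08% lower). The split of higher and lower depends on the scaling: it was 3 and 8 with RLE scaling and 1 and 11 with library size only, where the median of all genes moved by -0.18. OAS1, DDX60, UBE2L6 and IFIT3 were the lower members and IFITM2, IFITM3, OAS2 and TAP1 the higher ones. LB1 differed in 3 (background 4.05%, 2.43% lower), all lower: SAMD9, HERC5 and STAT2. LB2 differed in 4 (background 8.21%, 3.91% higher and 4.3% lower): PSMB8 and TAP1 higher, OAS3 and STAT2 lower. With the compared groups alone, the LAC calls of IFIT3, IFITM2, OAS2, TAP1 and UBE2L6 and the 4 LB2 calls were lost. These 3 comparisons share the 4 parental libraries at 0 h.

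Genes of the pathway outside the list were counted in the same way. Of 20 other interferon-induced genes, 16 were tested, and at 96 h 5 rose and 2 fell in LAC, 5 rose in LB2, 3 rose in the parental line and none was called in LB1. The shares of all genes called at that time were 15.4%, 3.55%, 7.78% and 3.17% in that order, with 6.74% higher and 8.64% lower in LAC and 1.95% higher in LB2. Against the parental response at 96 h, the LAC change was called higher in 1 of the 16 and lower in 2, beside 7.4% of all genes in either direction. The median difference of the 16 was -0.18, beside 0.06 over all genes. TRIM14, an adaptor of RNA sensing, rose by 1.08 ± 0.14 (edgeR adjusted p = 9.14e-07) in the parental line and 1.16 ± 0.15 (edgeR adjusted p = 1.29e-06) in LB2, at 23.6 ± 2.90 CPM going to 50.2 ± 1.74 and 18.3 ± 1.70 going to 41.3 ± 3.68. TRIM25, a ligase that activates the RNA sensor RIG-I, rose by 0.52 and 0.58 in the same lines (edgeR adjusted p = 0.00688 and 0.00765). MX2, the relative of MX1 that blocks HIV-1, rose by 0.64 ± 0.19 (edgeR adjusted p = 0.0163) in LAC and 0.90 ± 0.21 (edgeR adjusted p = 0.00754) in LB2, and was lower in LB1 than in the parental line at 0 h, with a difference of -1.54 ± 0.26 (edgeR adjusted p = 4.02e-05). LGALS3BP, a secreted galectin-binding protein, was lower at 0 h in all 3 tagged lines, by 1.19, 1.31 and 1.48 (edgeR adjusted p at most 1.52e-05), and rose by 0.89 ± 0.18 (edgeR adjusted p = 0.000716) in LAC at 96 h.

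Of the 14 genes of antigen presentation outside the list, 6 rose and none fell in LAC at 96 h, with a median of 0.42 beside 0.03 over all genes. In the parental line 2 rose and 1 fell, in LB1 and LB2 1 rose each. Of all genes, 6.74% rose in LAC, and 7.78%, 3.17% and 3.55% were called in either direction in the other lines. Against the parental response at 96 h, 1 of the 14 differed in LAC, HLA-F by 1.71, beside 7.4% of all genes. The median difference of the 14 was 0.14, beside 0.06 over all genes. NLRC5, the transactivator of MHC class I genes, rose at 96 h by 0.65 ± 0.17 (edgeR adjusted p = 0.0067) in LAC, 0.64 ± 0.18 (edgeR adjusted p = 0.0169) in the parental line and 0.69 ± 0.20 (edgeR adjusted p = 0.0428) in LB1, the untagged line included. PSME1, a proteasome activator, rose by 0.61 ± 0.11 (edgeR adjusted p = 0.000172) in LAC and 0.40 ± 0.11 (edgeR adjusted p = 0.0183) in the parental line. In LB2 at 0 h 4 of the 14 were above the parental line (3.91% of all genes), among them HLA-B by 1.46 ± 0.34 (edgeR adjusted p = 0.00321), NLRC5 by 0.81 ± 0.18 (edgeR adjusted p = 0.00228) and PSME1 by 0.44 ± 0.11 (edgeR adjusted p = 0.00928). HLA-B stood at 18.3 to 24.4 CPM in LB2 and 2.15 to 12.6 in the parental line without overlap. It was below the parental line in LB1 and LAC, with differences of -2.27 ± 0.46 (edgeR adjusted p = 0.000742) and -1.33 ± 0.38 (edgeR adjusted p = 0.0116). HLA-F, a nonclassical class I gene, fell in the parental line at 96 h, with a change of -1.15 ± 0.35 (edgeR adjusted p = 0.0306). HLA genes share sequence with one another, so their counts are uncertain. Among receptors and kinases (9 genes, all tested, with 15.4% of all genes called), LAC at 96 h had 1 that rose, IFNGR1 at 0.56 ± 0.17 (edgeR adjusted p = 0.0178), and 2 that fell, TYK2 at -0.53 ± 0.14 (edgeR adjusted p = 0.00833) and IFNLR1 at -0.43 ± 0.14 (edgeR adjusted p = 0.0356). No receptor or kinase was called with auxin in the other lines.

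The promoter cores were then counted by call. Of the 8 members that rose in LAC at 96 h, all with a promoter entry, 2 hold GAAA-NN-GAAA in the window, DDX60 (printed above) and DTX3L, and 6 do not. Of the 17 members with an entry called in at least 1 comparison, 10 hold it, and of the 12 never called, 8 do. Among the 5 members below the filter it is present in 3: BST2 (printed above), IFI44 and IFI44L. TTCNNNGAA is present in 3 of the 17 and 5 of the 12. These are counts of letters in a window of 300 bases at the first listed start of each gene, and say nothing of the factors.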

How the data were processed

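Total RNA, depleted of ribosomal RNA, was sequenced as stranded paired-end libraries from 46 samples in 12 groups. The authors' deposited table holds raw read counts per gene, made with featureCounts 1.6.4 per the file headers. STAR 2.7.10a and GRCh38 are named in the submitters' processing notes. The strand and multimapping settings are not given in the sources used here. The table had 62756 genes, with 1 further gene broken over 3 lines left out, and 67.5% of them had a symbol. Counts were scaled by TMM, filtered by group and tested with edgeR 4.0.16 (quasi-likelihood, R 4.3.3) in 1 fit of all libraries, with Benjamini-Hochberg adjustment over 21484 genes and a threshold of 0.05. Intervals cover 95%. On simulated counts the fit was checked for recovery of changed genes. Those counts had the same spread setting for all genes, no GC trend and no library that stood apart. Alternatives were other scalings, no filter, DESeq2 1.42.0, limma 3.58.1 voom, the compared groups alone, a replicate block, GC and length trends removed, and libraries left out. Replicate numbers deviated together in every pair only for LAC at 16 h against 0 h (correlations 0.119 to 0.690), where the block left 1 call. All 40 members are accounted for. The 10 called in the most comparisons are given by library, other called members by their largest called change, and up to 4 called genes per pathway list are named. Some genes of the pathway lists are not reported here. The members and lists were chosen with earlier results of these data known. Promoter sequences are from RefSeq, GRCh38.p14.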

Additional observations from a re-analysis of the deposited data

Results flagged for a closer look

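Single libraries stood far from the other three of their group in 6 of the 100 groups checked over the 10 members given by library, and chance alone flags about 1 group in 20. UBE2L6 was 28.3 CPM in replicate 3 of LB2 at 16 h, against 15.4 to 17.4 in the others. In the same library, the least deep of all, RSAD2 and CMPK2 were 2.18 CPM each, which is 1 count, against 0.112 to 0.298 and 4.34 to 4.58. OAS1 was 23.9 CPM in replicate 4 of the parental line at 0 h (others 15.5 to 16.7), HERC5 9.48 in replicate 1 of LB1 at 16 h (others 7.10 to 7.36), and CMPK2 6.28 in replicate 4 of LB1 at 96 h (others 4.55 to 4.75).

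The response at 96 h differed between lines by edgeR's test of the difference in 5 members. The LAC change exceeded the parental one by 1.09 for OAS1, 1.15 for DDX60, 0.86 for UBE2L6 and 1.27 for PSMB9 on the log2 scale. The LAC change exceeded the LB1 one by 1.32 for HERC5 and 0.95 for UBE2L6.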

How the results depend on the processing

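Of 49 called tests of members, 19 were kept under every alternative that gave a value and 30 were lost under at least 1, and none reversed. DESeq2 gave no adjusted p for RSAD2 in LAC and LB2 at 96 h. Fitting the compared groups alone lost 20, leaving out libraries under 5000000 counts 7, removing GC and length trends 2, and leaving out the first libraries of LAC and LB2 at 0 h 1. Of 421 alternative counts of members called, 329 stayed within 1.5 times the main count. The cause of the changes was not tested.

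Counts of members that moved further are given by comparison, each against 0 h of the same line unless named. The number of all genes called moved with the setting as well. With voom it was 4943 of 21484 genes for parental 16 h, beside 1935 in the main fit, and 2789 beside 383 for LAC 16 h. It was 1662 beside 323 for LB1 16 h, 2690 beside 762 for LB2 96 h and 1128 beside 224 for LB1 minus parental at 96 h. Parental 16 h (3) gave 5 with RLE, 9 with voom, 6 with the groups alone, 5 with GC removed, 5 without shallow libraries and 8 without the first libraries. Parental 96 h (4) gave 2 with RLE, 2 with library size, 2 with no filter, 2 with DESeq2 and 7 with voom. LAC 16 h (1) gave 2 with no filter, 2 with DESeq2, 7 with voom and 0 alone. LB1 16 h (0) gave 1 with RLE, 1 with library size, 3 with DESeq2, 7 with voom, 3 with GC removed, 5 without shallow libraries and 5 without the first libraries. LB1 96 h (2) gave 6 with voom, 4 alone and 4 without the first libraries. LB2 16 h (2) gave 1 with library size, 1 with no filter, 4 with voom and 0 alone. LB2 96 h (5) gave 8 with library size, 12 with voom, 0 alone, 9 with GC removed and 9 without the first libraries. For LAC minus parental, 16 h (0) gave 2 and 96 h (4) gave 8 with voom. LB1 minus parental at 96 h (0) gave 3 with voom, 2 alone, 2 with GC removed, 1 without shallow libraries and 3 without the first libraries. LAC against parental at 0 h (8) gave 13 with DESeq2 and 3 alone. LB2 against parental at 0 h (4) gave 2 with no filter, 0 alone, 2 without shallow libraries and 7 without the first libraries. LAC minus LB1 (2) gave 4 with voom, 1 alone, 1 without shallow libraries and 1 without the first libraries. LAC minus LB2 (0) gave 1 with DESeq2, 5 with voom, 3 without shallow libraries and 3 without the first libraries. LB1 minus LB2 (0) gave 3 with voom and 1 with GC removed.

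Leaving out 1 library at a time gave 1 to 3 and 1 to 4 members in the parental line at 16 and 96 h, 0 to 5 and 10 to 14 in LAC, 0 to 1 and 1 to 2 in LB1, and 0 to 3 and 3 to 7 in LB2. It gave 2 to 6 for LAC minus parental and 0 to 2 for LB1 minus parental at 96 h, and at 0 h 6 to 9, 2 to 3 and 2 to 4 for LAC, LB1 and LB2 against parental. LAC minus LB1 gave 1 to 2 and LAC minus LB2 0 to 4, and the other differences 0.

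With the replicate number as a block, LB1 at 16 h gave 1 member in place of 0, and 1 call was lost, IFITM3 in the parental line at 96 h. The pairing of the numbers was not borne out, with correlations down to -0.57. For LAC at 16 h all were positive, but the best match bore the same number in 1 of 4 pairs. Depth limits the low members, such as RSAD2.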

Other observations

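Some transducers and interferon regulatory factors outside the list were called as well. IRF8, best known as a factor of immune cells, rose in LB1 at 96 h by 1.72 ± 0.44 (edgeR adjusted p = 0.0164) (1.19 to 1.66 CPM at 0 h, 3.52 to 5.29 at 96 h), and in the parental line at 16 h by 1.55 ± 0.48 (edgeR adjusted p = 0.0343). STAT3, which answers cytokines of the IL-6 family, fell in LB1 at 96 h by 0.62 ± 0.13 (edgeR adjusted p = 0.0015). Its libraries held 128 to 137 CPM at 0 h and 75.5 to 93.5 at 96 h. In LAC at 96 h IRF2, a repressor of interferon responses, rose by 0.75 ± 0.16 (edgeR adjusted p = 0.000788) and at 0 h differed from the parental line by -0.74 ± 0.16 (edgeR adjusted p = 0.00121). IRF3, which starts interferon transcription, changed by -0.68 ± 0.20 (edgeR adjusted p = 0.0135) there.

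Of 8 negative regulators, all tested, 1 rose and 2 fell in LAC at 96 h, and 1 rose in the parental line. Of all genes, 15.4% were called in LAC at 96 h (6.74% higher, 8.64% lower) and 7.78% in the parental line. PIAS1, an inhibitor of STAT signalling, changed by 0.46 ± 0.16 (edgeR adjusted p = 0.0427) in LAC, PTPN1, a phosphatase of JAK kinases, by -0.38 ± 0.14 (edgeR adjusted p = 0.0468), and the IRF2 partner IRF2BP1 by -0.86 ± 0.25 (edgeR adjusted p = 0.0141). IRF2BP2, its relative, changed by 0.68 ± 0.14 (edgeR adjusted p = 0.00161) in the parental line. The LAC and parental comparisons with 0 h and with each other share their 0 h libraries.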
